A study of Mus musculus with 39 samples.

Results

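The Serpinb genes encode the clade B serpins, protease inhibitors that mostly stay inside the cell, and they were followed here in hind paw skin and in dorsal root ganglia (DRG) of mice given paclitaxel. Members were every gene symbol in the count files that starts with Serpinb, which gave 27 of 22609 genes. Of these, 22 had 10 or more reads summed over the 24 paw libraries. The groups differ in sex, treatment and day. C57 mice of 8 to 12 weeks had received paclitaxel, a microtubule-stabilising chemotherapy drug, at 3 mg/kg intraperitoneally in 2 injections 1 day apart, and hind paw punch biopsies and L3 to L5 DRG were taken. Female paw skin was sampled on days 2, 6, 16 and 26, male paw skin on days 2, 6 and 15, and DRG of both sexes on days 2 and 6. The control group of each tissue was vehicle-treated females, labelled WT control and sampled on day 1, and vehicle-treated males were not analysed here. The titles of all male libraries carry the letters LC, which the labels do not explain and the female titles lack, so what they stand for cannot be told apart from sex. All 13 groups held 3 libraries. The spread behind each p-value is that among libraries of the same group, pooled over all groups of a fit. The labels do not tie libraries to animals, so this spread may be technical.

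A serpin inhibits its target by offering a reactive loop as bait: the protease cuts the loop, the serpin changes shape, and the protease is trapped on it. The clade B genes lie in 2 clusters in the mouse. In the epidermis, the outer layer of skin built by keratinocytes, they are held to restrain the proteases that cut cell contacts as cells are shed and the proteases that leak from lysosomes or from immune cells. Loss of some of them causes skin disease in people, as for SERPINB7 in Nagashima-type palmoplantar keratosis and SERPINB8 in a peeling skin syndrome.

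On chromosome 1 lay 12 members, in the order Serpinb5, Serpinb12, Serpinb13, Serpinb3a, Serpinb3d, Serpinb3b, Serpinb3c, Serpinb11, Serpinb7, Serpinb2, Serpinb10-ps and Serpinb8. The other 15 lay on chromosome 13, from Serpinb1a to Serpinb6a. The 250 bases before the annotated start were available from RefSeq (GRCm38.p6) for 11 of the 12 members on chromosome 1 and for 14 of the 15 on chromosome 13. The AP-1 motif was taken as TGANTCA, with any base at the centre, and searched on both strands. This form was in the window in 7 of the 11 and in 0 of the 14. With G or C at the centre the motif was in Serpinb7 and Serpinb8 only, as TGAGTCA. The other members with a match hold TGAATCA or TGATTCA. All further AP-1 counts are for TGANTCA. It was in 6.75% of all 32851 promoter windows of the same length. The TATA box TATAAA, read on the gene's strand, was in 5 of the 11 and in 1 of the 14, against 7.59% of all windows. A member was counted if any of its annotated starts held the motif, while the percentages are per window. The 11 members had 13 starts and the 14 had 18. By window, 8 of the 31 held an AP-1 motif and 8 held a TATA box. The motifs share no bases in the windows shown, and a match describes the letters only. Members of 1 cluster arose by duplication, so their windows are not independent. The first pair of windows belongs to members that were abundant in paw skin and each hold an AP-1 motif, shown in capitals; in the first of them the TATA box is in capitals too. They are the first annotated start of Serpinb12 (chr1:106934199-106934448, plus strand) and that of Serpinb7 (chr1:107422439-107422688, plus strand).
Serpinb12: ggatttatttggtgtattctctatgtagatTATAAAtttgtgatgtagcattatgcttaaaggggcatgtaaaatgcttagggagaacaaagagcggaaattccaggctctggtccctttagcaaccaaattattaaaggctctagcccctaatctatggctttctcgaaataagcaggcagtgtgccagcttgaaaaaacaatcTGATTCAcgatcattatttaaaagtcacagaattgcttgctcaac
Serpinb7: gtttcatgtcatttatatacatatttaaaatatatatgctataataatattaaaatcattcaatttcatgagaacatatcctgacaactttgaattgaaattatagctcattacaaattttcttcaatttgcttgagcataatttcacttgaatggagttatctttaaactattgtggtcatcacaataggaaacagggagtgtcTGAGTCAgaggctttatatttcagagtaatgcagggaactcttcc
In both windows the AP-1 motif began 45 bases before the start. The next pair belongs to close copies whose levels are compared later, Serpinb3a (chr1:107052304-107052553, minus strand) and Serpinb3b (chr1:107161115-107161364, minus strand), with the TATA box in capitals.
Serpinb3a: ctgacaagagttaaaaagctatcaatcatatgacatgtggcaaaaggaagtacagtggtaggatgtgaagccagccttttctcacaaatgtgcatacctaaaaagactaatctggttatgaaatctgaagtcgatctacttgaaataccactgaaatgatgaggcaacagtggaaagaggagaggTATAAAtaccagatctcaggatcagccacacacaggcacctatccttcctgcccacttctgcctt
Serpinb3b: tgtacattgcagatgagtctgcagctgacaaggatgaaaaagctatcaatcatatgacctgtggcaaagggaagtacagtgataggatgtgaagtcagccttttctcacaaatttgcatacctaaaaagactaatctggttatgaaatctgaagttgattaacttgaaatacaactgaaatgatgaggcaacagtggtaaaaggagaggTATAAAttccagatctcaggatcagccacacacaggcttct
These 2 windows were identical at 77.0% of aligned positions, and the TATA box began 65 and 41 bases before the annotated start. The last pair shows the member with the widest gap between the sexes, Serpinb6e (chr13:33843409-33843658, minus strand), beside its neighbour Serpinb6d, first annotated start (chr13:33661155-33661404, plus strand), which had none of the 2 motifs either.
Serpinb6e: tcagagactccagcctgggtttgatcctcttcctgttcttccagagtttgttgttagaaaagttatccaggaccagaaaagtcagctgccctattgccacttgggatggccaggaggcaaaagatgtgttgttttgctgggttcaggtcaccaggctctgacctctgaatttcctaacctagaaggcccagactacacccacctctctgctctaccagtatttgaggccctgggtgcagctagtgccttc
Serpinb6d: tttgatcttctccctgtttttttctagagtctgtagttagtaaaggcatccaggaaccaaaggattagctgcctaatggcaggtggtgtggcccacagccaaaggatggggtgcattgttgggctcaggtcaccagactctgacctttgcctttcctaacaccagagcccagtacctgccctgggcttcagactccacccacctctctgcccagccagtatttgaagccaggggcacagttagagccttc
The last pair was identical at 67.6% of aligned positions, and neither window held a full androgen response element or a full estrogen response element (palindromic consensus, both strands), which were in 0.01% and 0.06% of all windows. The shorter androgen response motif AGAACA (both strands) was in the Serpinb6e window and not in that of Serpinb6d, and in 16.08% of all windows.

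**Figure D1:**
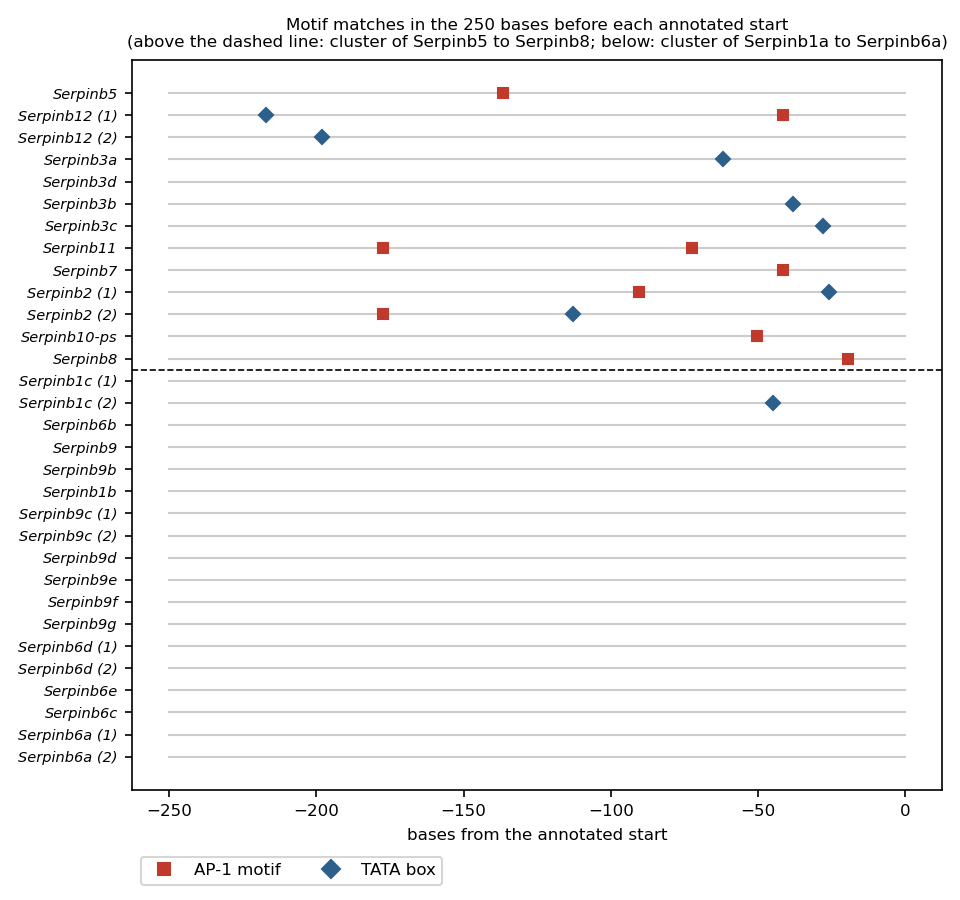
Positions of the AP-1 motif (TGANTCA, squares) and the TATA box (diamonds) in the 250 bases before each annotated start, one line per start, in bases from the start. All AP-1 matches lie above the dashed line, in 7 of 11 members of the chromosome 1 cluster, and 0 of 14 members of the chromosome 13 cluster hold one.

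Library facts that touch the results come first. The total of gene reads ran from 16781618 to 24598926 per paw library and from 19049166 to 26136854 per DRG library. The share of reads touching more than 1 gene was 0.21% to 0.30% in the 18 libraries of paclitaxel-treated females and 0.54% to 0.75% in the other 21. A comparison of paclitaxel-treated females with vehicle, or of the sexes on 1 day, therefore also compares these library sets, and treatment or sex cannot be told apart from them. Males and vehicle females share a set, but there sex and treatment cannot be told apart. Comparisons of days within a sex do not cross the sets. Skeletal muscle markers differed widely among paw biopsies of the same group, from a sum of 50.4 to 11507 CPM in the 3 vehicle libraries, CPM being a gene's reads per 1000000 gene reads of its library. Paw libraries carried differentiated keratinocyte markers at 89034 to 164198 CPM, while neutrophil markers and T and NK cell markers summed to at most 1.54 and 1.44 CPM.

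In vehicle paw skin the members spanned a wide range, and the 5 highest per kilobase were all of the chromosome 1 cluster. Per kilobase of exon, which allows genes to be compared, Serpinb5 stood highest at 400 ± 24.2 CPM per kilobase (SD, n = 3). Serpinb5 is maspin, an epithelial serpin with no known inhibitory activity. Serpinb12, an inhibitor of trypsin-like proteases, followed at 225 ± 17, Serpinb7 (megsin) at 152 ± 15.2, and Serpinb2 (PAI-2), which inhibits the urokinase plasminogen activator, at 117 ± 6.62. The libraries of these 4 members did not overlap with those of the next in order. Serpinb3b came next at 77.1 ± 7.83 CPM per kilobase. Serpinb3b is one of 4 mouse relatives of the human squamous cell carcinoma antigens. Its libraries overlapped with those of Serpinb6a, a cathepsin G inhibitor, at 61 ± 15.9.

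A middle group of neighbours that overlapped in their libraries held Serpinb10-ps at 46.6 ± 3.12, Serpinb3a at 41.8 ± 3.07 and Serpinb11 at 41.7 ± 4.76 CPM per kilobase, with Serpinb8, an inhibitor of furin, below them at 34.5 ± 2.27. Serpinb6c, Serpinb13, Serpinb3d, Serpinb1a and Serpinb6e lay between 14.4 and 7.52 CPM per kilobase, each overlapping with the next. Serpinb1a inhibits neutrophil elastase, cathepsin G and proteinase 3, and Serpinb13 (headpin) inhibits lysosomal cathepsins. Serpinb9, the inhibitor of granzyme B, stood at 1.77 ± 0.277. Over all 24 paw libraries Serpinb5 took 34% of the reads of all members and Serpinb12 20.3%. 5 members were at or near the limit of detection, written here as counts: Serpinb9c, Serpinb9f and Serpinb9g had 0 reads in all 39 libraries, Serpinb9d had 2 reads in DRG, and Serpinb9e had 1 in paw. Serpinb9b had 47 paw reads and did not pass the filter on low counts. The other 21 members were tested in paw.

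Sharing of sequence limits some of these values. The 50-base windows, as long as a read, were cut from all annotated transcripts, a wider set than the exons behind the per-kilobase levels. For Serpinb6a there were 5728 windows against 2003 exon bases. Of the windows of Serpinb3a, Serpinb3b, Serpinb3c and Serpinb3d, 12.2% to 15% also occur in another gene. For Serpinb6a the share was 25.1%, with 715 of 1440 shared windows also in Nqo2, and 499 bases of its exons overlap 1110046J04Rik on the opposite strand. Serpinb2 and the gene that RefSeq calls Serpinb10 share 243 windows. For Serpinb5, Serpinb7, Serpinb11, Serpinb12 and Serpinb13 the share was 0%, and for Serpinb6e 0.95%. Among the members at or near the limit of detection the share was high. It was 78.69% for Serpinb9f, 54.85% for Serpinb9g, 30.81% for Serpinb9d, 28.44% for Serpinb9e and 18.02% for Serpinb9c. Counts of 0 for these members therefore need not mean absence. Members with a shared part are uncertain, because the placing of such reads was not recorded. Some shared windows may lie outside the exons used for the levels, so the shares do not measure that uncertainty exactly.

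Most members were far higher in vehicle paw skin than in vehicle DRG. All 21 members tested differed between the tissues, 16 higher and 5 lower in paw, in a set of 15826 genes of which 82.8% differed, 41.1% higher and 41.7% lower (edgeR quasi-likelihood test, Benjamini-Hochberg adjusted p under 0.05). Serpinb5 had 1057, 1177 and 1067 CPM in the 3 vehicle paw libraries and 1.15, 1.37 and 1.37 CPM in the 3 vehicle DRG libraries. The difference was 9.75 ± 0.133 on the log2 scale (SE), with an adjusted p of 6.75e-09 (edgeR). Serpinb8 had 158 CPM in paw and 12.3 CPM in DRG on average, a log2 difference of 3.71 ± 0.109.

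Of the 21 members tested, 4 had 0 reads in every vehicle DRG library. Against a floor of 3 reads per library, Serpinb13 was at least 187.8-fold higher in paw, Serpinb3d at least 119.8-fold, Serpinb6d at least 17.4-fold and Serpinb3c at least 10.5-fold. The 5 members lower in paw were Serpinb1a, Serpinb1b, Serpinb6a, Serpinb6b and Serpinb9, all of the chromosome 13 cluster. Serpinb6a had 150, 87.4 and 128 CPM in vehicle paw and 446, 407 and 432 CPM in vehicle DRG. Its libraries did not overlap, and the log2 difference was -1.79 ± 0.184. Serpinb1a stood at 16.1 ± 1.11 CPM in paw and 63.5 CPM in DRG, a difference of -1.96 ± 0.074. Markers of neutrophils, which are known to make Serpinb1a, were lower in paw for 7 of 7 measured genes, and the part of such cells in the result was not tested. In bulk tissue, fewer cells of a type and less RNA per cell cannot be told apart.

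**Figure D2:**
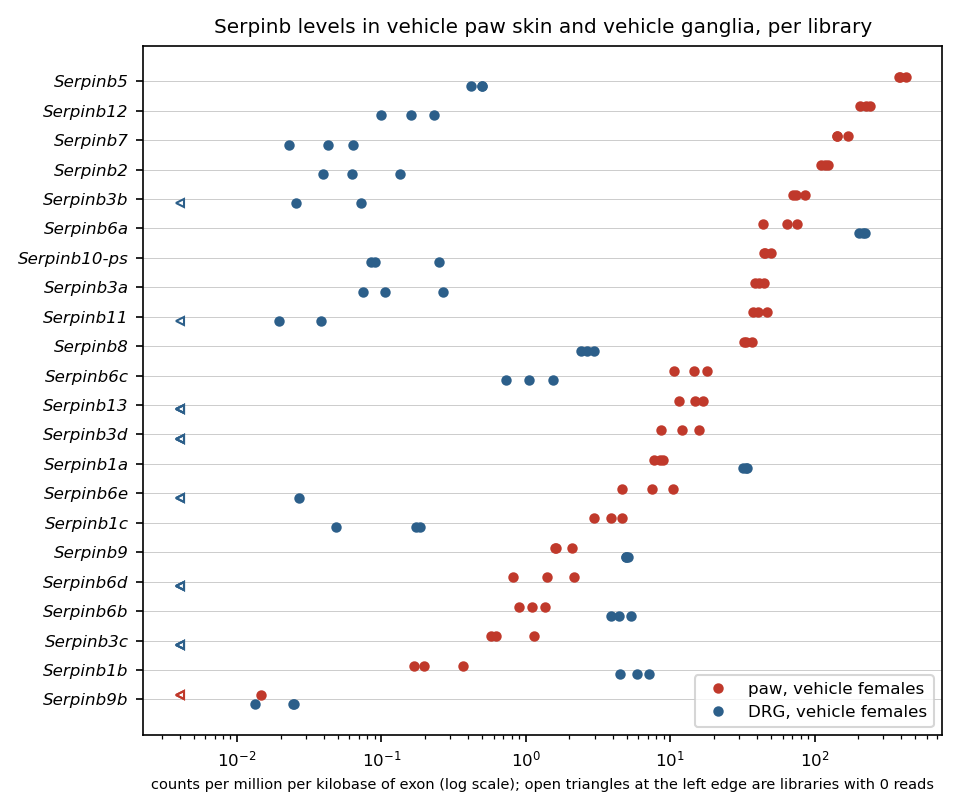
CPM per kilobase of exon, on a log axis, for the 22 members with 10 or more paw reads, in the 3 vehicle paw (red) and 3 vehicle DRG (blue) libraries, with open triangles for libraries with 0 reads. Serpinb5 leads in paw at 400 CPM per kilobase and Serpinb6a leads in DRG.

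The genes on which these serpins act, or that act beside them, were counted from lists. Of 10 kallikreins, the shedding proteases of the epidermis, 9 could be tested between the tissues and 9 were higher in paw, with a median log2 difference of 7.64 against 0 for all genes. Of 16 tested target proteases of clade B serpins, 10 were higher and 5 lower in paw. Elane and Prtn3, the neutrophil proteases that Serpinb1a inhibits, were lower in paw by log2 differences of -6.64 and -4.95, while Plau, the urokinase that Serpinb2 inhibits, was higher by 2.56. Of 16 other protease inhibitors 11 were higher, among them Spink5, an inhibitor of kallikreins, by 12.36, and 3 were lower: A2m by a log2 difference of -9.80, Timp3 by -1.32, and Timp2.

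Female paw skin after paclitaxel was compared with vehicle on 4 days, and the same 3 vehicle libraries served each time. On day 2, 4 of 21 members passed (19%), when 29% of the 15346 genes tested did. On day 6 again 4 passed (19%, all genes 29.5%), on day 16 there were 5 (23.8%, all genes 21.7%), and on day 26 there were 2 (9.5%, all genes 20.4%). Members were thus called no more often than genes at large, apart from a small excess on day 16 that was not tested. Their median log2 change lay between -0.22 and 0.17 on these days.

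Serpinb3a and Serpinb3c rose on days 6 and 16. Serpinb3a had 73.4, 63.5 and 67.5 CPM in vehicle libraries, 172, 172 and 121 CPM on day 6, and 98.2, 130 and 181 CPM on day 16. Every library of these 2 days lay above every vehicle library, although the day 16 values were widely spread. The log2 change was 1.33 ± 0.256 on day 6 (adjusted p = 0.00067, edgeR) and 1.12 ± 0.255 on day 16 (adjusted p = 0.00383). On day 2 the libraries, at 94.8, 79 and 105 CPM, also lay above vehicle, but the change of 0.53 ± 0.253 did not pass (adjusted p = 0.121). On day 26 they overlapped with vehicle, at 101, 95.5 and 50.6 CPM.

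Serpinb3c is a low member, with 1.89, 0.958 and 1.03 CPM in vehicle libraries. It reached 8.57, 4.55 and 3.86 CPM on day 6 and 4.35, 5.84 and 6.57 CPM on day 16. No treated library of these days overlapped with vehicle. The log2 changes were 2.28 ± 0.563 and 2.22 ± 0.564 (adjusted p = 0.00475 and 0.0079, edgeR). On day 26 it had 0.97, 1.43 and 0.179 CPM, overlapping with vehicle but with the last library below all vehicle libraries. The close copies Serpinb3b and Serpinb3d did not pass on any of the days. Serpinb3b had 125, 145 and 121 CPM in vehicle and 157, 154 and 153 CPM on day 6, with a change of 0.38 ± 0.197 (adjusted p = 0.159). Serpinb3d had 19.2, 14.6 and 10.4 CPM in vehicle and 20.8, 52.8 and 13.2 CPM on day 6, 1 library standing far above the others, with a change of 1.09 ± 0.451 (adjusted p = 0.0766).

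Serpinb12 passed on day 6 and on none of the other 3 female days. It had 393, 420 and 361 CPM in vehicle libraries and 755, 607 and 536 CPM on day 6. All day 6 libraries were higher than all vehicle libraries, and the log2 change was 0.83 ± 0.19 (adjusted p = 0.00265, edgeR). On day 2 the values were 450, 386 and 337 CPM, a change of 0.08 with a 95% interval of -0.32 to 0.48. Days 16 and 26 overlapped with vehicle as well, at 332, 470 and 508 CPM and at 331, 398 and 255 CPM. The calls of Serpinb12, Serpinb3a and Serpinb3c in females were kept when any 1 library was left out. Beside them, Lor and Krt10, genes of differentiated keratinocytes, rose on day 6 by 1.52 and 0.79 (2 of 9 tested), and the summed markers of these cells were 142259 to 164198 CPM on day 6 against 98337 to 113720 CPM in vehicle. The mean log2 CPM of the same list overlapped, at 11.47 to 12.66 on day 6 and 12.07 to 12.27 in vehicle. On day 16 the sum was 115408 to 157202 CPM, also above vehicle, and Lor rose by 1.20 while Ivl fell by 1.07 (1 up and 1 down of 9). On day 16, 3 of 8 genes of stressed keratinocytes rose, Krt16, Krt6a and Krt17, by 2.79, 1.55 and 1.01. The part of these cell states in the serpin changes was not tested.

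Serpinb10-ps, which RefSeq lists as Serpinb10 (bomapin, known in people from blood-forming cells), fell on days 2, 6 and 26. It had 63.7, 71.9 and 64.6 CPM in vehicle libraries. It had 35.7, 41.7 and 43.6 CPM on day 2, then 37.7, 37.8 and 42.4 CPM on day 6. On day 16 the values were 44, 40.7 and 48.7 CPM, and on day 26 they were 39.2, 39.5 and 28.7 CPM. All 12 treated female libraries were below all 3 vehicle libraries. The log2 changes were -0.64 ± 0.205, -0.63 ± 0.205 and -0.80 ± 0.205 on days 2, 6 and 26 (adjusted p = 0.0242, 0.026 and 0.00893, edgeR), while the change of -0.48 ± 0.204 on day 16 did not pass (adjusted p = 0.101). These calls rested on single libraries. Without vehicle replicate 2 the adjusted p was 0.084 on day 2 and 0.0912 on day 6. It was also lost on day 2 without day 2 replicate 1 (0.0915), on day 6 without vehicle replicate 1 (0.0568), day 6 replicate 1 (0.0641) or day 6 replicate 2 (0.0923), and on day 26 without day 26 replicate 3 (0.0577). With the muscle level as a covariate the day 2 change was -0.49 (adjusted p = 0.0574).

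Serpinb11 (epipin) fell on days 2 and 16. It had 78.1, 97.6 and 84.8 CPM in vehicle libraries, 60.8, 62.8 and 43.9 CPM on day 2, and 52.9, 57.1 and 59.6 CPM on day 16. Neither day overlapped with vehicle, and the log2 changes were -0.55 ± 0.179 and -0.52 ± 0.179 (adjusted p = 0.0263 and 0.0448, edgeR). Between them, on day 6, it had 85.2, 68.1 and 87.6 CPM and overlapped with vehicle. The day 2 call was lost without vehicle replicate 2 (-0.45, adjusted p = 0.125) or day 2 replicate 3 (-0.40, 0.155), and the change was -0.34 with the muscle level as a covariate (adjusted p = 0.0306). The day 16 call was lost without any of the 3 vehicle libraries (0.0559, 0.189 and 0.0758) and without day 16 replicate 1 (0.16) or 2 (0.107), and without the low-count filter (0.0538). When only the compared groups were fitted, the day 2 adjusted p was 0.061.

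Serpinb6d, a low member, fell on days 2 and 16. It had 2.07, 3.16 and 1.19 CPM in vehicle libraries, 0.344, 0.715 and 1.01 CPM on day 2, and 0.191, 0.165 and 0.414 CPM on day 16. Both days lay below vehicle. The log2 changes were -1.56 ± 0.526 (adjusted p = 0.0323, edgeR) and -2.94 ± 0.599 (adjusted p = 0.00155). The day 2 call was lost without vehicle replicate 1 (0.0548) or 2 (0.169) and without day 2 replicate 1 (0.127) or 2 (0.0527), and with only the compared groups in the fit (0.0817), while the day 16 call was kept in each case.

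Serpinb1a rose on day 16, from 16.3, 14.8 and 17 CPM in vehicle to 22.3, 19.8 and 26 CPM, with no overlap and a log2 change of 0.60 ± 0.209 (adjusted p = 0.0448, edgeR). The call was lost without any 1 vehicle library (0.0874, 0.13 and 0.0898) and without day 16 replicate 1 (0.0719) or 3 (0.191), with other size factors (0.0523) and without the low-count filter (0.0517). Serpinb2 fell on day 26, from 245, 253 and 227 CPM in vehicle to 159, 178 and 118 CPM, with no overlap and a change of -0.57 ± 0.199 (adjusted p = 0.0487). The call was lost without any 1 vehicle library (0.119, 0.142 and 0.0683) and without day 26 replicate 1 (0.101) or 3 (-0.38, 0.239), and without the low-count filter (0.058).

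Serpinb6a rose on day 2. It had 150, 87.4 and 128 CPM in vehicle libraries and 216, 161 and 337 CPM on day 2, all above vehicle, with a log2 change of 1.05 ± 0.351 (adjusted p = 0.0313, edgeR). The highest of these libraries was also the one with the most muscle marker reads, 28851 CPM, and the lowest vehicle library had the least, 50.4 CPM. With the muscle level as a covariate the change was 0.59, with an adjusted p of 0.05 after rounding. The call was lost without vehicle replicate 2 (0.86, adjusted p = 0.133) or 3 (0.0723), without day 2 replicate 3 (0.71, adjusted p = 0.193), and when only the compared groups were fitted (0.0651). The part of muscle in the result was not tested further. That of the overlap of Serpinb6a exons with 1110046J04Rik was not tested.

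**Figure D3:**
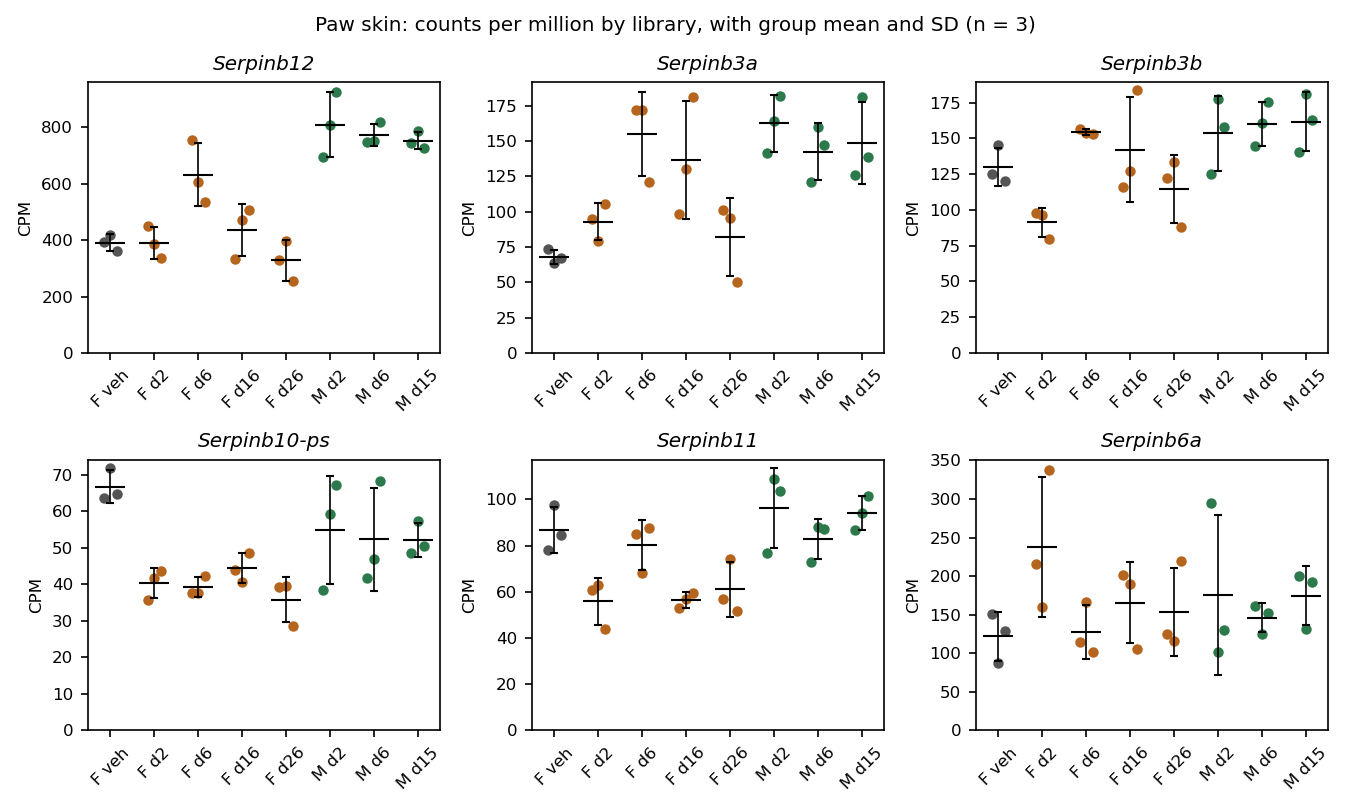
CPM per library of 6 members over the 8 paw groups (F female, M male, veh vehicle, d day), with the group mean and SD (n = 3). Serpinb12 lies at 694 to 925 CPM in males and at 361 to 420 CPM in vehicle females, and all paclitaxel-treated female libraries of Serpinb10-ps lie below vehicle.

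10 of the 21 tested members passed in none of the comparisons of paclitaxel-treated paw with female vehicle, males included: Serpinb3b, Serpinb3d, Serpinb5, Serpinb6b, Serpinb6c, Serpinb7, Serpinb8, Serpinb9, Serpinb13 and Serpinb1b. Serpinb7 was among the steadiest, with 269, 319 and 271 CPM in vehicle and 183 to 340 CPM over all paw libraries. Its 7 log2 changes ran from -0.25 to 0.17, and their 95% intervals from -0.65 to 0.58. For Serpinb5 the changes ran from -0.47 to 0.02, with a smallest adjusted p of 0.064 on female day 2, when it had 669, 933 and 636 CPM, all below the 1057 to 1177 CPM of vehicle. For Serpinb8 the 7 changes ran from -0.24 to 0.13, and their intervals from -0.55 to 0.44.

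On female day 2, 3 of 10 kallikreins fell (Klk11 by 0.79, Klk7 by 0.67 and Klk9 by 0.61 on the log2 scale), with a list median of -0.39 against 0.04 for all genes. On the same day 5 of 15 tested target proteases rose and 3 fell, with a list median of 0.64 against 0.04, on a day when 29% of all genes passed. Ctsb and Ctsk, lysosomal cathepsins, rose by 0.66 and 1.06, and Prss8 fell by 0.70. On day 6, 0 target proteases rose and 1 fell, on day 16 there were 2 that rose, Ctsl and Plau by 0.51 and 0.62, and on day 26 none of the 15 passed (edgeR). Kallikreins gave 1 rise on day 6, 1 rise and 1 fall on day 16, and 1 fall on day 26. Of 15 other protease inhibitors, 2, 3, 1 and 1 rose on the 4 days and 0 fell, among them Wfdc12 by 1.39 on day 6 and Slpi by 2.28 on day 16.

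Within females, later days were compared with day 2. No member passed on day 6, 16 or 26 (edgeR), while 0.873%, 1.48% and 0% of all genes did. At an unadjusted p under 0.05 there were 6 higher and 1 lower on day 6, 3 and 2 on day 16, and 1 and 0 on day 26, and DESeq2 called 5, 1 and 0. Serpinb3b had 97.9, 96.7 and 79.7 CPM on day 2 and 157, 154 and 153 CPM on day 6. The groups did not overlap, and the change of 0.81 ± 0.198 came nearest to passing (adjusted p = 0.0553). Serpinb12 came next, at 0.75 ± 0.19 (adjusted p = 0.0577). Skeletal muscle markers differed between these days, summing to 4862 to 28851 CPM on day 2 and to 107 to 6538 CPM on day 6. With the muscle level as a covariate 0 members and 0 of all genes passed, against 134 genes without it. The part of muscle in these changes was not tested further. The count for day 6 against day 2 rested on single libraries: it was 5 without day 2 replicate 2 and 3 without day 6 replicate 2. Within males no member passed on day 6 or 15 against day 2, and 0% of all genes did. There were 1 and 0 members at an unadjusted p under 0.05, and DESeq2 called 0 on both days. The change from day 2 to day 6 was also compared between the sexes. No member passed (edgeR, 0% of all genes), 6 were higher in females at an unadjusted p under 0.05, and DESeq2 called 0.

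Paclitaxel-treated male paw skin was set against the vehicle females. On days 2, 6 and 15, 4, 4 and 5 of 21 members passed (19%, 19% and 23.8%), when 5.95%, 5.97% and 4.4% of all genes did. The same 4 members, Serpinb12 and Serpinb3a higher and Serpinb1c and Serpinb6e lower in males, passed on all 3 days, and the 3 comparisons share the vehicle libraries.

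Serpinb12 had 694, 809 and 925 CPM in males on day 2, 749, 753 and 817 CPM on day 6, and 743, 785 and 726 CPM on day 15. All 9 male libraries were above the vehicle females, whose highest library had 420 CPM. The log2 differences were 1.12 ± 0.191, 1.04 ± 0.191 and 0.99 ± 0.191 (adjusted p = 0.0026, 0.00438 and 0.0093, edgeR). Serpinb3a had 142, 164 and 182 CPM on day 2, 121, 160 and 147 CPM on day 6, and 126, 181 and 139 CPM on day 15, all above the 63.5 to 73.4 CPM of vehicle. Its differences were 1.33 ± 0.256, 1.13 ± 0.255 and 1.19 ± 0.256 (adjusted p = 0.00565, 0.0148 and 0.0166). The Serpinb3a call was lost on day 6 without vehicle replicate 2 (0.0661) or 3 (0.0633) or male replicate 2 (0.0697), and on day 15 without vehicle replicate 2 (0.0793) or 3 (0.061) or male replicate 2 (0.0582).

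Serpinb1a was higher in males on day 15, at 26, 27 and 29.8 CPM against 14.8 to 17 CPM in vehicle, with no overlap and a difference of 0.83 ± 0.209 (adjusted p = 0.0307, edgeR). The call was lost when any 1 of the 6 libraries was left out, with an adjusted p of 0.0703, 0.127 and 0.0801 without vehicle replicates 1 to 3 and of 0.0704, 0.0727 and 0.107 without male replicates 1 to 3. Differentiated keratinocyte genes were called in 0 of 9 cases on each of these days. For stressed keratinocytes the list median was 0.22, 1.43 and 1.74 on days 2, 6 and 15, with 0, 0 and 2 of 8 genes higher in males, the 2 being Krt17 by 1.07 and Krt6a by 1.45. Macrophage markers summed to 239 to 390 CPM in vehicle females and to 428 to 920 CPM in males, and mast cell markers to 87.1 to 111 CPM and 130 to 203 CPM. Few of these genes passed singly. Of 7 tested macrophage genes 1, 1 and 0 were higher in males on days 2, 6 and 15, and of 6 mast cell genes 1, 2 and 0. Among targets of the clade, Ctsk and Ctsb were higher in males on all 3 days, by 1.42 to 1.56 and 0.68 to 0.92 on the log2 scale, and the kallikrein Klk10 by 1.04 to 1.07. The part of these cells and cell states in the serpin differences was not tested.

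Serpinb6e and Serpinb1c, both on chromosome 13, were much lower in males. Neither has a role that is well known; Serpinb1c is a close relative of Serpinb1a. Serpinb6e had 6.89, 11.2 and 15.6 CPM in vehicle females. In males it had 0.186, 0.569 and 0.39 CPM on day 2, 0.234, 1.02 and 0.653 CPM on day 6, and 0.186, 0.329 and 0.387 CPM on day 15. No male library reached the lowest vehicle library. The log2 differences were -4.78 ± 0.599, -4.07 ± 0.567 and -5.17 ± 0.625 (adjusted p = 0.000181, 0.000517 and 0.000178, edgeR).

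Serpinb1c had 4.82, 7.52 and 6.35 CPM in vehicle females. In males it had 1.77, 1.47 and 1.9 CPM on day 2, 1.31, 2.42 and 2.07 CPM on day 6, and 1.35, 1.48 and 0.994 CPM on day 15. Again the groups did not overlap, and the differences were -1.80 ± 0.319, -1.63 ± 0.317 and -2.24 ± 0.329 (adjusted p = 0.00347, 0.00586 and 0.00161, edgeR). The calls of Serpinb6e and Serpinb1c were kept when any 1 library was left out.

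All libraries of paclitaxel-treated females stayed above all male libraries for both genes. Serpinb6e had 6.67, 11.6 and 3.45 CPM in females on day 2 and 2.82, 3.58 and 7.95 CPM on day 6. It then had 5.4, 8.98 and 8.59 CPM on day 16 and 10.3, 7.04 and 6.2 CPM on day 26. Over all 15 female paw libraries Serpinb6e ran from 2.82 to 15.6 CPM with a median of 7.04, and over all 9 male libraries from 0.186 to 1.02 CPM with a median of 0.387. Serpinb1c ran from 3.4 to 8.42 CPM with a median of 5.22 in females, and from 0.994 to 2.42 CPM with a median of 1.48 in males. These 2 members had no overlap between the sexes with the females higher, as 2.5% of all genes tested did (383 genes). The reverse, which held for 1.31% of genes, was seen in 0 members: Serpinb12 came near it, with 694 to 925 CPM in males and 255 to 755 CPM in females.

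On matched days of paclitaxel, a comparison added after the values were seen, the sexes differed in the same 2 members. On day 2, 6 of 21 members passed (28.6%, all genes 31.2%). Serpinb6e was higher in females by 4.24 ± 0.594 and Serpinb1c by 1.71 ± 0.319 (adjusted p = 2.93e-05 and 0.000463, edgeR). Serpinb11, Serpinb12, Serpinb3a and Serpinb3b were lower in females, by log2 differences of -0.78, -1.04, -0.79 and -0.74. The Serpinb3a call was lost without male replicate 2 (0.053) or 3 (0.0735) or female replicate 1 (0.052) or 2 (0.0695), and that of Serpinb11 when only the compared groups were fitted (0.0505). Without male replicate 1 the count of members called was 10. On this day 5 of 6 sensory neuron genes were higher and 1 lower in females, 4 of 10 kallikreins were lower, and skeletal muscle genes had a median difference of 1.34 with 0 of 10 called. The part of these in the serpin differences was not tested.

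On day 6, 4 of 21 members passed (19%, all genes 37.3%), all higher in females, as were 19.2% of all genes. Serpinb6e differed by 2.98 ± 0.56 and Serpinb1c by 1.94 ± 0.318 (adjusted p = 0.000426 and 0.000123, edgeR). Serpinb3c differed by 1.59 ± 0.54 (adjusted p = 0.0271), a call lost without female replicate 1 (1.13, 0.144) or male replicate 2 (0.0907) or 3 (0.0994). Serpinb6c differed by 0.60 ± 0.23 (adjusted p = 0.048). That call was lost without female replicate 1 (0.0806) or 3 (0.154), without male replicate 1 (0.109) or 3 (0.142), and with the muscle level as a covariate (0.33, 0.0708) or no low-count filter (0.0528). Serpinb12, with 755, 607 and 536 CPM in females and 749, 753 and 817 CPM in males, did not pass on day 6. On this day macrophage markers were lower in females for 5 of 7 tested genes and basal keratinocyte genes for 3 of 8, while sensory neuron genes were higher for 4 of 6. Skeletal muscle genes had a median difference of -0.82 with 0 of 10 called. The part of these in the differences was not tested.

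**Figure D4:**
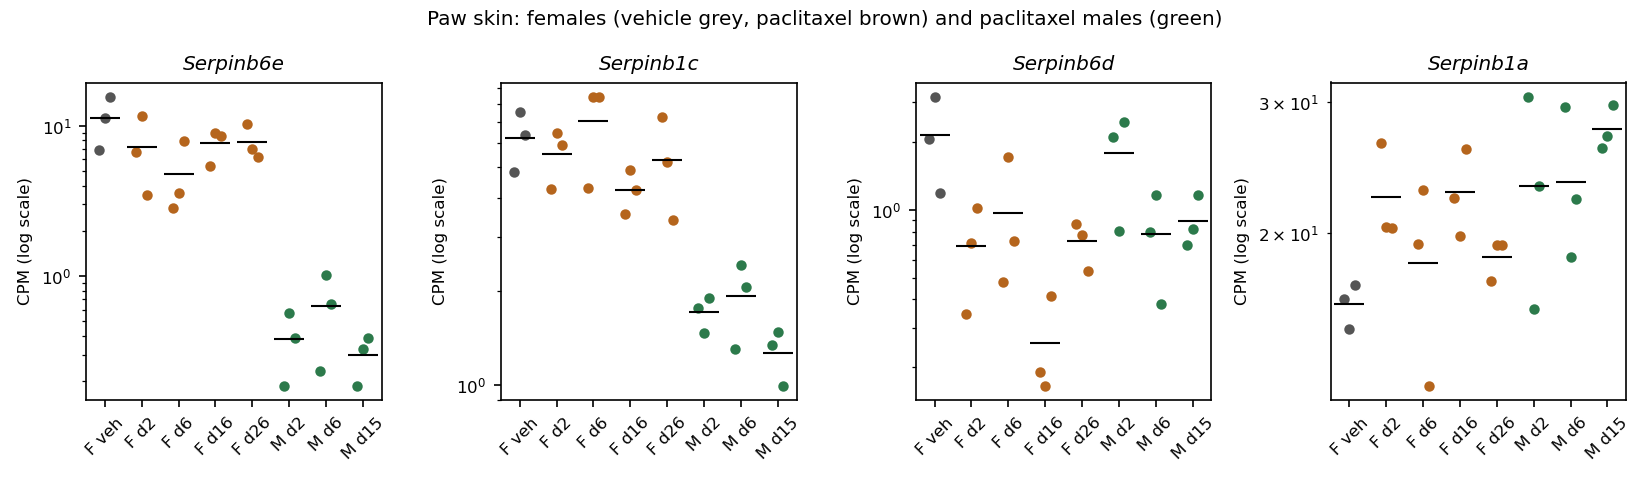
CPM per library, on log axes, of 4 members over the 8 paw groups, with a bar at the group mean. For Serpinb6e all 15 female libraries lie between 2.82 and 15.6 CPM and all 9 male libraries between 0.186 and 1.02 CPM, and Serpinb1c shows no overlap of the sexes either.

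In DRG 11 members could be tested. In females 4 rose on day 2 and the same 4 on day 6 (36.4% of members each time), when 49.8% and 41.5% of all genes passed and 25.8% and 23.2% rose: Serpinb12, Serpinb5, Serpinb7 and Serpinb6a. The 2 days share the vehicle libraries. The low-count filter saw all 15 DRG libraries, so low members could be kept through the groups where they were high. Serpinb7 had 0.038 to 0.356 CPM in vehicle and male DRG and 0.22 to 0.673 CPM in treated females. The share of members that rose thus depends in part on the filter. Without the filter 4 members were called on each day as well. Serpinb12, Serpinb5 and Serpinb7 are abundant in skin and had low counts in DRG. Serpinb12 had 7, 4 and 10 reads in vehicle DRG, 18, 16 and 23 reads on day 2, and 25, 18 and 17 reads on day 6, with no overlap. Its log2 changes were 1.61 ± 0.375 and 1.75 ± 0.372 (adjusted p = 0.00274 and 0.00165, edgeR). Serpinb7 had 3, 1 and 2 reads in vehicle, 5, 16 and 8 on day 2, and 8, 10 and 12 on day 6, again with no overlap, and changes of 2.36 ± 0.62 and 2.50 ± 0.615 (adjusted p = 0.00608 and 0.00473). Serpinb5 had 1.15, 1.37 and 1.37 CPM in vehicle, 2.37, 2.61 and 2.26 CPM on day 2 and 2.36, 1.56 and 2.56 CPM on day 6, all above vehicle. Its changes were 0.90 ± 0.194 and 0.76 ± 0.195 (adjusted p = 0.00163 and 0.00626).

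Markers of differentiated keratinocytes moved with these 3 members in the DRG libraries, and those of basal keratinocytes only in part. The summed CPM of 9 measured genes of differentiated keratinocytes was 37.1 to 39.5 in vehicle DRG, 220 to 281 on female day 2 and 195 to 288 on female day 6, and 8 of the 8 tested genes of this list rose on both days. In male DRG the sum was 34.7 to 39.4 on day 2 and 47.3 to 69.6 on day 6, and Serpinb5 stood at 1.05 to 1.32 and 1.41 to 1.6 CPM. Of 8 basal keratinocyte genes, 4 rose and 2 fell on female day 2, and 4 rose and 0 fell on day 6. Their sum was 1856 to 2283 CPM in vehicle DRG, 1350 to 1475 CPM on female day 2 and 1410 to 1979 CPM on day 6. The mean log2 CPM of the same list went the other way, without overlap. It was 3.37 to 3.45 in vehicle DRG, 3.90 to 4.10 on female day 2 and 3.95 to 4.12 on day 6. Of these 8 genes 1 was lower in vehicle paw than in vehicle DRG, so the sum need not follow keratinocytes. Of 4 tested genes of stressed keratinocytes, 1 rose on each day. In paw, sensory neuron genes rose in treated females against vehicle, 5, 4, 3 and 2 of 6 on days 2, 6, 16 and 26. On day 26, 1 fell, and in males against vehicle 0 were called on each day. Treated-female DRG libraries belong to the set with few reads touching more than 1 gene. Treatment therefore cannot be told apart from that set in DRG either. The part of skin RNA, or of the library set, in the DRG results was not tested. Serpinb6a, which is abundant in DRG, had 446, 407 and 432 CPM in vehicle, 508, 469 and 498 CPM on day 2, and 490, 483 and 528 CPM on day 6. No library overlapped with vehicle, and the changes were small, 0.21 ± 0.059 and 0.25 ± 0.059 (adjusted p = 0.0102 and 0.00323, edgeR). The day 2 call was lost without vehicle replicate 2 (0.18, adjusted p = 0.0565). Male DRG had 514, 447 and 501 CPM of Serpinb6a on day 6. As stated above, 499 exon bases of Serpinb6a overlap 1110046J04Rik. Reads touching more than 1 gene were 0.28% to 0.30% in treated-female DRG and 0.71% to 0.75% in the other DRG libraries. The part of this overlap in the Serpinb6a changes was not tested. In males no member passed between day 6 and day 2 (edgeR, 0% of all genes), none had an unadjusted p under 0.05, and DESeq2 called 0.

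**Figure D5:**
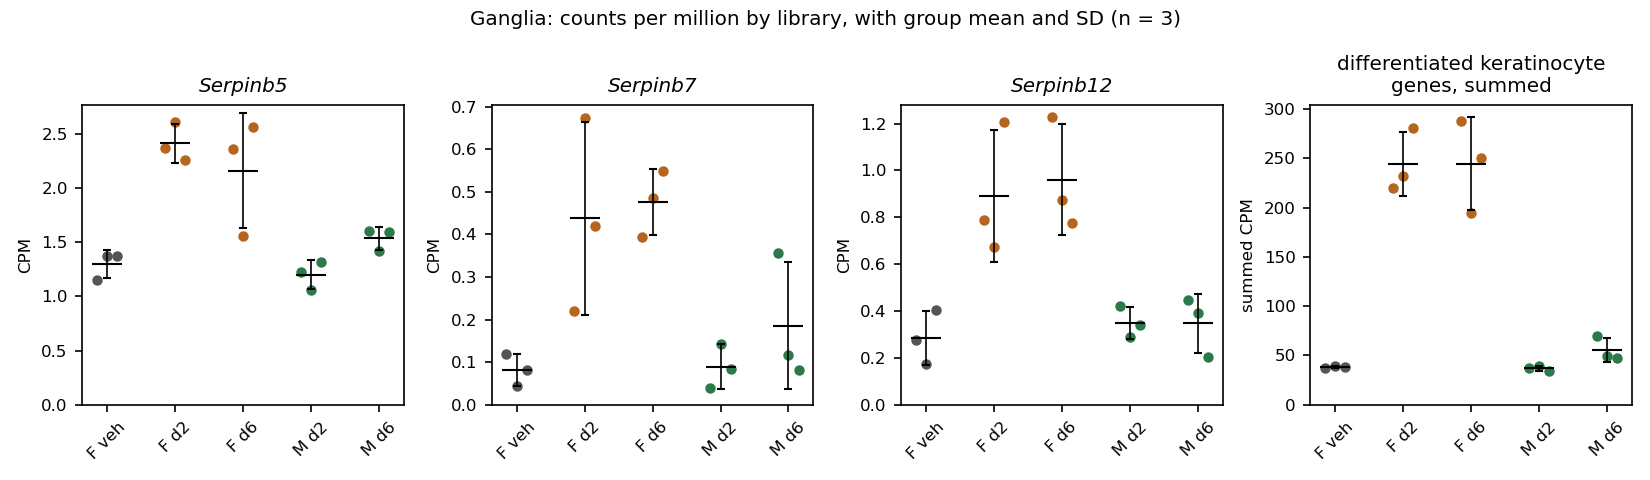
CPM per DRG library of Serpinb5, Serpinb7 and Serpinb12, and the summed CPM of differentiated keratinocyte genes, with the group mean and SD (n = 3). The 6 libraries of paclitaxel-treated females lie above the 3 vehicle libraries in every panel, with the keratinocyte sum at 195 to 288 CPM against 37.1 to 39.5 CPM.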

How the data were processed

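RNA from hind paw punch biopsies and L3 to L5 DRG was turned into stranded mRNA libraries, sequenced from 1 end for 50 bases per the labels. The submitters' processing notes name bcl2fastq, TopHat2, HTSeq and the build mm9; versions, annotation and strand setting are not given in the sources used here. What the authors deposited are whole-number counts for each gene symbol, without normalization, 1 file per library, and their 5 summary lines were left out.

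The members and gene lists were chosen with earlier results of these data known. Named genes were members called in at least 1 comparison or high in vehicle paw, with other genes from the lists. CPM were computed from total gene reads. Each tissue was fitted with edgeR 4.0.16 (R 4.3.3; TMM, filterByExpr, quasi-likelihood F test, 1 coefficient per group; 15346 genes in paw, 15577 in DRG), and the 6 vehicle libraries in a further fit. The threshold was a Benjamini-Hochberg adjusted p of 0.05, log2 changes carry SE, and intervals are 95%. Exon lengths came from the basic set of GENCODE M21 on GRCm38, and shared windows from all transcripts of that release. Promoters came from RefSeq on GRCm38.p6, and no coordinates were converted.

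Every pair of libraries of a tissue was compared, and none were as close as 1 library sampled again (lowest chi-square divided by its degrees of freedom 8.25 for paw, 4.83 for DRG). The fitting was tested on simulated data. Alternatives were DESeq2 1.42.0, other size factors, no filter, only the compared groups, a muscle covariate, a replicate block and leaving out each library. Deviations from the group mean were correlated between libraries of equal replicate number. Every such correlation was over 0.1 in female paw day 2 against vehicle (0.18 to 0.65). The same held for male paw day 6 (0.27 to 0.69) and day 15 (0.23 to 0.61) against vehicle. It also held for male DRG day 6 against day 2 (0.19 to 0.35). In female paw day 6 against vehicle the correlations were -0.8 to -0.36. Positive values do not show that samples were paired, and libraries of different sexes cannot come from the same animal.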

Additional observations from a re-analysis of the deposited data

How the results depend on the processing

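The 67 calls of members were each recomputed under 10 to 12 alternatives, which gave 760 values. In 694 the call was kept, in 66 it was lost, 55 of these by leaving out 1 library, and in 0 did the direction change. Of 232 counts of called members under an alternative, 206 were within 1.5 times the count reported and 26 were not. Without the low-count filter 3 members passed on female day 16 and 1 on day 26 against vehicle. With the muscle level as a covariate 4 passed on female day 26 against vehicle and 1 on day 16 against day 2. DESeq2 called 5 for female day 6 against day 2 and 1 for day 16 against day 2. The cause was not tested.

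With the replicate number as a block, 2 members passed for female day 6 against day 2, where the correlations by replicate number were -0.54 to 0.12. In the comparisons where every correlation was over 0.1, the block moved no count by over 1.5 times: 5 passed in place of 4 on female day 2 against vehicle.

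With each library left out in turn, the count in paw against vehicle ran from 0 to 5 on female day 2, 3 to 6 on day 6, 3 to 4 on day 16 and 0 to 3 on day 26. It was 0 without vehicle replicate 2 on day 2 and without day 26 replicate 3 on day 26. In males it ran from 4 to 5, 3 to 4 and 3 to 4 on days 2, 6 and 15. It ran from 0 to 5 for female day 6 against day 2, from 5 to 10 and from 2 to 4 between the sexes on days 2 and 6, and from 3 to 5 and from 4 to 5 in female DRG on days 2 and 6. Depth limits the members under about 10 reads per library, Serpinb6e in males among them.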
